A study of Homo sapiens with 2 samples.

Results

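The transcripts measured here encode the core switch of the cell cycle. They are the cyclin-dependent kinases CDK1, CDK2, CDK4, CDK6 and CDK7, the CDC25 phosphatases CDC25A, CDC25B and CDC25C, and the opposing kinases WEE1 and PKMYT1. Members were chosen by name alone, as every gene probe on the array carrying one of these symbols or an older alias (CDC2 for CDK1). That gave 10 genes of the 19218 measured, with 13 probes of the 41000 on each array and 31 spots of the 43376 gene spots. All 13 probes passed the filter on dim probes.

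RNA came from PC3 cells, an established line derived from a metastasis of prostate cancer. Cells had been transfected with SUB1 siRNA 1, SUB1 siRNA 2 or a non-targeting duplex (Non-T siRNA), transfected again 24 h later, and harvested 72 h after the first transfection. SUB1 encodes a coactivator of transcription that binds single-stranded DNA, and the question put to the arrays was which transcripts differ once it is depleted. Each of 2 dual-colour Agilent arrays on a shared slide held Non-T siRNA RNA in Cy3 and RNA of 1 SUB1 siRNA in Cy5, with no dye swap and no second culture of either siRNA. A probe that favours a dye and a transcript that answers to the knockdown therefore cannot be told apart. The control for both arrays was the Non-T siRNA alone, and the sources used here do not state if 1 extract of it served both arrays.

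A cyclin-dependent kinase is inactive without its cyclin, and it stays inactive while inhibitory phosphates sit on its ATP-binding loop. WEE1 and PKMYT1 add those phosphates and the CDC25 enzymes remove them, and CDK7, with cyclin H and MNAT1, adds the activating phosphate. CDK4 and CDK6 act with D-type cyclins on the retinoblastoma protein in G1, CDK2 acts with cyclins E and A around DNA replication, and CDK1 with cyclins A and B drives mitosis. Several of these genes are transcribed mainly in S, G2 and M phase through promoter elements called the cell cycle genes homology region (CHR), the CCAAT box and E2F sites. In RNA from whole cultures, fewer cells in those phases and less RNA per cell cannot be told apart.

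The stretches below show what these elements look like in members that hold a match. They come from RefSeq promoter windows (GRCh38.p14), are written 5′ to 3′ on the gene's strand, and carry the matched element in capitals. The first 3 hold a CHR match and the last an E2F match.
CDK1, chr10:60778448-60778477, plus strand: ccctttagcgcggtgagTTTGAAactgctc
CDC25C, chr5:138331817-138331846, minus strand: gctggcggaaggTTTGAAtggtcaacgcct
CDC25B, chr20:3796260-3796289, plus strand: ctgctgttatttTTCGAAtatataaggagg
CDC25A, chr3:48188443-48188472, minus strand: ggtggattccgTTTGGCGCcaactaggaaa

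Within the 250 bases before each annotated start, the CHR was searched as TTTGAA or TTCGAA, the CCAAT box as CCAAT, and E2F sites as TTTCCCGC, TTTGGCGC, TTTCGCGC or TTTGCCGC, on both strands. Of the 10 genes, 7 have at least 1 window in the table, and CDK2, WEE1 and PKMYT1 were not found there. A gene counted if any of its windows held a match. CDK1 has 2 windows and CDC25B and CDC25C have 4 each, while the 27305 genes have 35116, so these genes had more room for a match. A CHR match was present in 3 of those 7 (CDK1, CDC25B and CDC25C), against 17.2% of the 27305 genes with a window. A CCAAT match was present in 4 of 7, the same 3 genes and CDC25A, against 37.0%, and an E2F match in 2 of 7 (CDK1 and CDC25A), against 3.40%. In CDK1 the printed CHR lies 13 to 8 bases before the start, and its E2F match 128 to 121 bases before. The CHR lies 30 to 25 bases before the start in CDC25C and 38 to 33 bases before it in CDC25B, while the E2F match of CDC25A lies 44 to 37 bases before its start. CDK4, CDK6 and CDK7 had no match in their windows. A match describes letters in a window, and no binding was measured.

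Ratios are given as log2 of a SUB1 siRNA over the control, Non-T siRNA. For SUB1 itself they were -3.30 (siRNA 1) and -3.26 (siRNA 2), so 10.2% and 10.4% of the control signal was left, and its 4 probes lay between -3.75 and -1.57 over the arrays. No gene spot was saturated, and the median SD between spots of the same probe was 0.078 and 0.074 (201 probes with 10 spots each). The epithelial markers (EPCAM, CDH1, KRT8 and KRT18) were well above background in Cy3 with 8 of 8 probes on both arrays, between 111 and 10046 intensity units. Markers of other cells were dim or below background in that Cy3 channel, with 1 of 4 leukocyte, 1 of 3 endothelial and 2 of 2 fibroblast probes well above background on both arrays and none over 164 units. In Cy5 the fibroblast probe of COL1A1 read 259 and 188 units. Of 7 probes for androgen-driven prostate genes 2 were well above background in Cy3 on both arrays. Of the 3 KLK3 probes only 1 was, and it was bright (18634 units beside siRNA 1 and 15436 beside siRNA 2).

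CDK1, the kinase that drives entry into mitosis, had the lowest ratio of the 10 genes with both siRNAs, although with the scanner software's processed signals CDC25C (-1.11) lay below CDK1 (-0.96) for siRNA 1. Its log2 ratio was -1.04 with siRNA 1 and -1.76 with siRNA 2, which left 48.6% and 29.6% of the Non-T siRNA signal. PKMYT1 and CDC25C, which act on the same phosphates of CDK1 in opposite directions, had the next lowest means, with -0.72 and -1.03 for PKMYT1 and -0.80 and -0.83 for CDC25C. CDC25B was lower by less, and CDK2, CDK7 and WEE1 stayed within 0.36 log2 units of the control with either siRNA. That bound depends on the processing, since with processed signals CDK2 read -0.64 with siRNA 1 and WEE1 -0.70 with siRNA 2. CDK4 was low mainly with siRNA 1 and CDK6 mainly with siRNA 2.

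**Figure D1:**
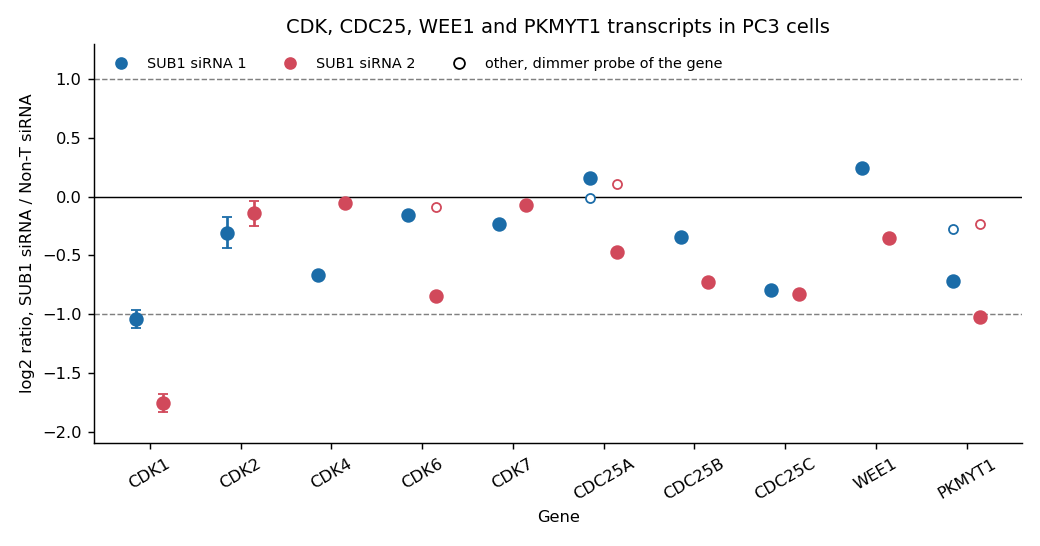
Log2 ratio to Non-T siRNA (vertical axis) for each gene (horizontal axis), with SUB1 siRNA 1 in blue and SUB1 siRNA 2 in red. Filled points are the probe that stands for the gene, open points its other probe (for CDK6 with siRNA 1 the open point, -0.16, lies behind the filled one at -0.15), bars are the SD of 10 spots where a probe has them, and dashed lines mark a 2-fold change. CDK1 lies below the lower line with both siRNAs, and CDC25A and WEE1 lie above 0 with siRNA 1 and below it with siRNA 2.

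By the study's rule of an absolute fold change of 2 on an array, 1 of the 10 genes was lower with siRNA 1 (CDK1) and 2 with siRNA 2 (CDK1 and PKMYT1). Over all genes measured, 0.609% were at least 2-fold lower with siRNA 1 and 1.07% with siRNA 2. None of the 10 was at least 2-fold higher on either array, where 0.208% and 0.614% of all genes were. CDK1 with siRNA 1 and PKMYT1 with siRNA 2 lie just past the threshold, and CDK6 and CDC25C with siRNA 2 (-0.84 and -0.83) are the nearest genes short of it. CDK1 with siRNA 1 fell short of 2-fold with median centring in place of loess (-0.80), with processed signals (-0.96) and with the authors' own normalized ratios (-0.97). With the first and the last of these no member reached 2-fold with siRNA 1 and 1 did with siRNA 2.

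Ratios were below 0 on both arrays for 8 of the 10 genes, while 30.3% of all genes were lower on both. With median centring in place of loess 5 of the 10 were lower on both, and the median of all genes rose to 0.127 and 0.119. All 10 were below 0 with siRNA 2, as were 8922 of all 19218 genes. But CDK4 and CDK7 with siRNA 2 were above 0 with median centring and with the scanner software's processed signals. CDK4 with siRNA 2 was also above 0 with the authors' ratios. The median of the 10 was -0.32 with siRNA 1 and -0.60 with siRNA 2, beside 0.024 over all genes on each array. Both arrays have Non-T siRNA as their control, so the ratios of a gene on both are not independent if they carried the same extract.

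The mean of both siRNAs was tested against 0 in limma across all 19218 genes. None of the 10 genes passed a Benjamini-Hochberg adjusted p of 0.05, and SUB1 was the only gene of the series that did (adjusted p = 0.0255, 0.0052% of genes). In 5 other settings SUB1 did not pass (adjusted p 0.0701 to 0.175), and without the filter on dim probes CDC25C did (adjusted p = 0.0469). Unadjusted p was under 0.05 for 4 of the 10, all lower (CDK1, CDC25B, CDC25C and PKMYT1), against 9.9% of all genes that were lower at that level. The test has 1 array per siRNA. Its error is the difference between the siRNAs of a gene, drawn by eBayes toward a spread pooled over all genes. A p above the threshold does not show that a transcript was level.

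CDK1 was read by 1 probe printed in 10 spots on each array, so its spread between spots is known. The probe lies at chr10:62222010-62223656 (hg18, plus strand), a span of 1647 bases that holds an intron. With siRNA 1 its spots ran from -1.15 to -0.95 (median -1.07, SD 0.079), and with siRNA 2 from -1.90 to -1.65 (median -1.77, SD 0.076). The spots of the arrays did not overlap, and the ratios differed by -0.72 (siRNA 2 minus siRNA 1), many times the spot SD. Spots of a probe share an RNA sample, a labelling and an array, so they measure the spread within an array only. Error between labellings, dyes or arrays is not in the spot SD, and the difference between the siRNAs was not tested. The raw Cy3 signal of Non-T siRNA was 2857 beside siRNA 1 and 2491 beside siRNA 2, and the Cy5 signal of the SUB1 siRNA was 1703 and 902. In normalized log2 intensity the Cy3 channels differed by -0.20, close to the median of -0.19 over all genes, and the Cy5 channels by -0.91, beyond the median of -0.16 and SD of 0.32. The mean log2 ratio of the 2 siRNAs was -1.40 ± 0.19 (limma adjusted p = 0.114). Here and below, ± is the moderated SE of limma, which borrows spread from all genes. It is not the SE of the 2 values alone. CDK1 ranked 105th from the lowest of 19218 genes with siRNA 1 and 13th with siRNA 2.

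**Figure D2:**
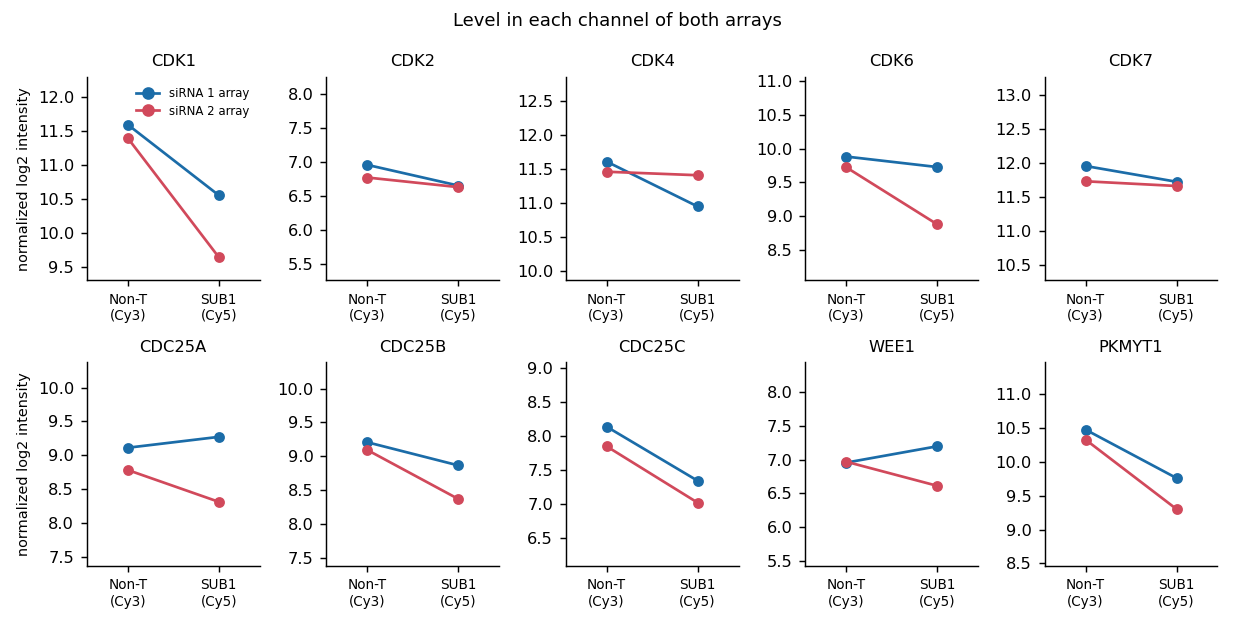
Normalized log2 intensity (vertical axis, each panel spanning the same range around its own mean) in the Non-T siRNA channel (Cy3) and the SUB1 siRNA channel (Cy5) for the 10 genes, with the siRNA 1 array in blue and the siRNA 2 array in red. The Non-T siRNA points of the 2 arrays differ by -0.33 to 0.014 (siRNA 2 minus siRNA 1), and the SUB1 siRNA points of CDK1, CDK6 and CDC25A lie further apart, by -0.91, -0.84 and -0.96.

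The interphase kinases had smaller ratios. CDK2, the partner of cyclins E and A, was read by 10 spots of a dim probe (chr12:54652056-54652115, hg18; Cy3 141 and 123 units, where the brightest negative control spot was at 102 and 89.3). Its spots ran from -0.56 to -0.14 with siRNA 1 (mean -0.31, SD 0.13) and, with siRNA 2, from -0.30 to -0.010 (mean -0.14, SD 0.11), so that the arrays overlapped. Every spot on both arrays was below 0, and the limma mean was -0.22 (adjusted p = 0.294).

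CDK4, a G1 kinase of the D-type cyclins, had 1 bright spot per array (chr12:56428530-56428589, hg18, minus strand). Its log2 ratio was -0.66 with siRNA 1 and -0.051 with siRNA 2, or 63.2% and 96.5% of the control. The raw Cy5 signal was 2201 with siRNA 1 and 3043 with siRNA 2, while Cy3 was 2825 and 2529. CDK6, its close relative, showed the reverse order, with -0.15 for siRNA 1 and -0.84 for siRNA 2 on its brighter probe (chr7:92072379-92072438, hg18, minus strand). Raw Cy5 of that probe was 935 and 517 beside Cy3 of 875 and 786. The second CDK6 probe spans 48399 bases of hg18, so it crosses at least 1 intron, and read -0.16 and -0.090. Its Cy3 signal of 111 and 97.9 units was not well above background on either array, so it gives little information on the difference between the siRNAs. The difference of siRNA 2 minus siRNA 1 was 0.61 for CDK4 and -0.69 for CDK6. With 1 array per siRNA neither difference could be tested, and limma adjusted p for the means was 0.313 and 0.241.

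CDK7, the CDK-activating kinase that is also part of the general transcription factor TFIIH, was bright (Cy3 3570 and 3040 units; chr5:68608176-68608235, hg18). Its log2 ratio was -0.23 with siRNA 1 and -0.069 with siRNA 2 (mean -0.15, limma adjusted p = 0.446). Its partner subunits were split, with cyclin H (CCNH) at -0.31 and -0.49 and MNAT1 at 0.043 and -0.010.

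Among the phosphatases, CDC25C, which acts at mitotic entry, was alike with both siRNAs. Its log2 ratio was -0.80 with siRNA 1 and -0.83 with siRNA 2, which left 57.5% and 56.2% of the control (chr5:137649139-137649198, hg18, minus strand; Cy3 289 and 235 units, Cy5 172 and 141). The siRNAs differed by -0.034, the smallest difference of the 10 genes. The limma mean was -0.81 ± 0.095 (moderated SE, 2 siRNAs, adjusted p = 0.114). With the scanner software's processed signals CDC25C read -1.11 and -1.16, past 2-fold on both arrays. CDC25B, the phosphatase that starts CDK1 activation in G2, read -0.34 and -0.72, or 78.9% and 60.6% of the control (chr20:3734178-3734237, hg18). Its limma mean was -0.53 ± 0.13 (moderated SE, adjusted p = 0.151).

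CDC25A, which acts on CDK2 in G1 and S phase as well as on CDK1, lay on opposite sides of the control. Its brighter probe (chr3:48174128-48174187, hg18, minus strand) read 0.16 with siRNA 1 and -0.47 with siRNA 2, and raw Cy5 was 676 and 348 units beside Cy3 of 522 and 422. The other probe (chr3:48175154-48175213, hg18), dim at 136 and 125 units in Cy3, read -0.013 and 0.10. The probes of CDC25A thus gave different signs on each array, and neither ratio of the dim probe exceeded the spot SD of the similarly dim CDK2 probe. The limma mean of the brighter probe was -0.15 (adjusted p = 0.645).

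The inhibitory kinases differed from each other. WEE1, the nuclear kinase, was dim (Cy3 137 and 134 units; chr11:9564856-9564915, hg18) and read 0.24 with siRNA 1 and -0.36 with siRNA 2 (limma adjusted p = 0.869). PKMYT1, its membrane-bound relative, read -0.72 and -1.03 on its brighter probe (chr16:2962805-2962864, hg18, minus strand), where raw Cy5 was 959 and 694 beside Cy3 of 1307 and 1180. A dimmer PKMYT1 probe across an intron (chr16:2964637-2965358, hg18; Cy3 183 and 155) read -0.28 and -0.23, so its probes gave the same sign and different sizes. The mean of the probes was short of 2-fold with siRNA 2, at -0.63. The limma mean of the brighter probe was -0.87 ± 0.12 (moderated SE, 2 siRNAs, adjusted p = 0.114).

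Ordered by the mean of both siRNAs, the ratios ran from CDK1 (-1.40) through PKMYT1 (-0.87), CDC25C (-0.81), CDC25B (-0.53), CDK6 (-0.50), CDK4 (-0.36), CDK2 (-0.22), CDC25A (-0.15) and CDK7 (-0.15) to WEE1 (-0.057). The values of the 2 siRNAs did not overlap between CDK1 and PKMYT1 or between CDC25C and CDC25B, and every other pair of neighbours in that order overlapped. The gap between CDK1 with siRNA 1 (-1.042) and PKMYT1 with siRNA 2 (-1.025) was narrow. These genes overlapped with an offset of 16 (-1.052 and -1.062), with the authors' ratios (-0.974 and -0.979) and with median centring. Of the 10 genes 7 were lower with siRNA 2 than with siRNA 1, and 3 (CDK2, CDK4 and CDK7) were higher. Over all genes 9689 were lower with siRNA 2 and 9529 higher, close to an even split.

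The genes that lay nearest to CDK1 over the 2 ratios were CEP55 (-1.17 and -1.72), a protein of the midbody in cytokinesis, and PCLAF (-0.99 and -1.63), a PCNA-binding protein, after an unnamed probe (A_24_P204604) at -1.00 and -1.79. Their Euclidean distances were 0.137, 0.139 and 0.054 log2 units over 2 arrays. Nearest to PKMYT1 were AURKA (-0.70 and -1.02), NUSAP1 (-0.73 and -1.01) and CENPN (-0.70 and -1.01), a mitotic kinase, a spindle protein and a centromere protein, within 0.019 log2 units. There were 14 genes within 0.1 log2 units of PKMYT1 and 1 within that distance of CDK1. A likeness over 2 arrays with a shared control describes these arrays and no more.

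Among the partners of the kinases, the B-type cyclins had the lowest ratios. Of 13 cyclins, CKS proteins and CDK7 partners listed, 11 were measured, since CCNA1 and CCND2 had no probe above the filter. The mitotic cyclins CCNB2 (-1.21 and -1.74) and CCNB1 (-1.08 and -1.00) were at least 2-fold lower with both siRNAs. CCNB1 with siRNA 2 lay at the threshold. No other partner was 2-fold lower with either, while 0.609% (siRNA 1) and 1.07% (siRNA 2) of all genes were. Next in size after the B-type cyclins was CKS1B, a small subunit that binds CDKs (-0.80 and -0.65). Its 3 probes lay between -0.83 and -0.65 over the arrays. Cyclin A2 (CCNA2) followed at -0.59 and -0.81. The 4 G1 cyclins measured (CCND1, CCND3, CCNE1 and CCNE2) lay above 0 with siRNA 1 and below 0 with siRNA 2, as did 16.1% of all genes. The pattern held for 1 of the 4 with median centring and 3 of the 4 with median signals, processed signals or the authors' ratios. Cyclin E1 (CCNE1) read 0.62 and -0.17, and cyclin D1 (CCND1) read 0.39 and -0.50 on its brightest probe, with 0.36 and -0.13 and with 0.60 and -0.027 on the others. Over the 11 partners the medians were -0.31 and -0.49, and they shrank to -0.067 and -0.24 with median centring and to -0.058 and -0.20 once the dim CCNA1 and CCND2 were let in. Unadjusted limma p was under 0.05 for 6 of the 11, all lower (9.9% of all genes), and none passed an adjusted p of 0.05 (lowest 0.114).

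Most inhibitors of the kinases had ratios above 0. Of 8 measured, 5 were above 0 on both arrays and 2 below it in each of 11 settings, where 38% of all genes were above 0 on both. The medians were 0.23 and 0.35, or 0.093 and 0.19 with the mean of all probes of a gene and 0.45 and 0.59 with median centring. CDKN1B, the inhibitor p27, read 0.71 with siRNA 1 and 1.21 with siRNA 2, at least 2-fold higher with the second, and its dimmer probe read 0.27 and 0.34. CDKN1A, the inhibitor p21, read 0.37 and 0.75, although its dimmer probe read -0.19 and 0.055. CDKN3, a phosphatase that removes the activating phosphate of CDKs and is itself a gene of the G2 and M phases, was low at -0.89 and -1.62, and CDKN2D was at -0.48 and -0.71. Unadjusted limma p was under 0.05 for 6 of the 8, of which 4 were higher (11% of all genes) and 2 lower (9.9%), and none had an adjusted p under 0.05 (lowest 0.114).

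**Figure D3:**
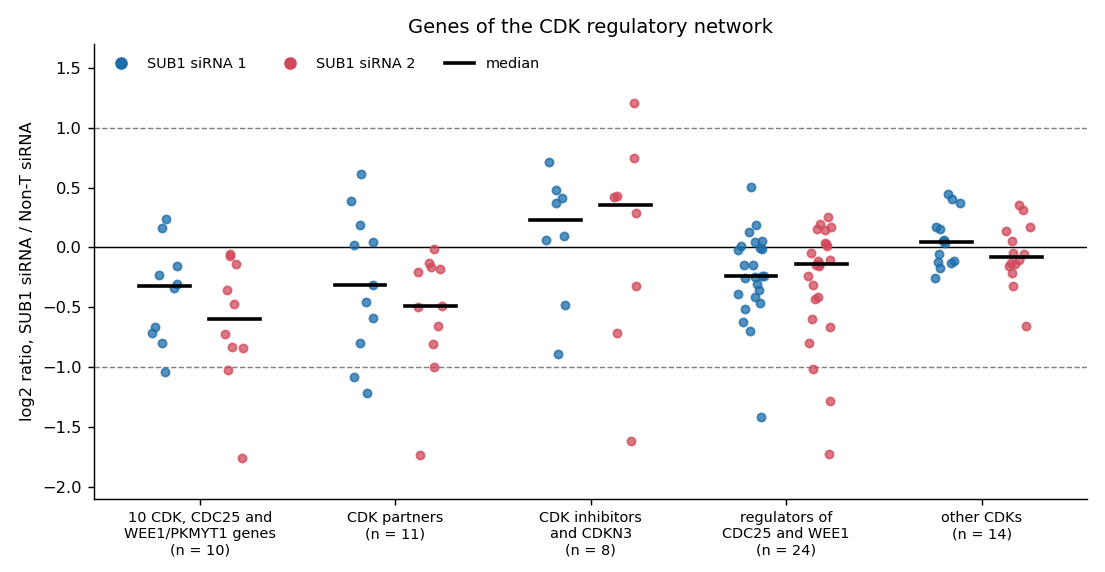
Log2 ratio to Non-T siRNA (vertical axis) for the 10 genes and 4 lists of related genes (horizontal axis, n genes measured), with SUB1 siRNA 1 in blue, SUB1 siRNA 2 in red, the median as a black bar and dashed lines at a 2-fold change. The medians of the inhibitors with CDKN3 lie above 0 (0.23 and 0.35) and those of the 10 genes and of the partners below it (-0.32 and -0.60, and -0.31 and -0.49). The medians of the regulators (-0.24 and -0.14) lie below 0 here and above it with median centring (0.046 and 0.069). With median centring the median of all genes was itself 0.127 and 0.119.

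Of 24 upstream regulators of CDC25 and WEE1, all measured, PLK1, the kinase that activates CDC25C and marks WEE1 for destruction, lay past 2-fold on both arrays (-1.41 and -1.72, limma adjusted p = 0.114). Its dimmer probe read -0.16 and -0.30. AURKA, which activates PLK1, was at -0.70 and -1.02, and CHEK1, the checkpoint kinase that inhibits CDC25 proteins, at -0.39 and -0.80. Of the 7 measured genes for 14-3-3 proteins, which hold phosphorylated CDC25 in the cytoplasm, YWHAQ and YWHAZ had the ratios furthest apart between the siRNAs, which was not tested. YWHAQ was low with siRNA 2 on each of its 4 probes (-1.28, -1.07, -1.07 and -1.00) and at -0.25 to -0.12 with siRNA 1. YWHAZ was low with siRNA 1 on each of its 6 probes (-0.77 to -0.62) and between -0.061 and 0.13 with siRNA 2. On the brightest probe of the others the siRNAs were nearer to each other. These were SFN (-0.41 and -0.66), YWHAB (-0.36 and -0.16), YWHAG (0.051 and 0.037), YWHAE (-0.15 and 0.15) and YWHAH (0.013 and -0.43). YWHAE and YWHAH thus had opposite signs with the 2 siRNAs, as did the second YWHAB probe (-0.46 and 0.076). Probes of a gene share the RNA of their array, so they are repeat readings and not replicates of a siRNA. Over the 24 regulators the medians were -0.24 and -0.14, with 1 gene at least 2-fold lower with siRNA 1 (0.609% of all genes) and 3 with siRNA 2 (1.07%). Unadjusted p was under 0.05 for 8, all lower (9.9% of all genes), and no adjusted p was under 0.05.

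The other cyclin-dependent kinases, many of which act in transcription or in neurons rather than in the cycle, had ratios near the control. Of 16 listed, 14 were measured (CDK15 and CDK18 had no probe above the filter), none was 2-fold changed with either siRNA, and the medians were 0.045 and -0.081. Few genes were past 2-fold at all, 0.609% lower and 0.208% higher with siRNA 1, and 1.07% and 0.614% with siRNA 2. CDK13 (0.45 and 0.36) and CDK20 (0.37 and 0.31) were the 2 of 14 with an unadjusted limma p under 0.05. Both were higher, as were 11% of all genes at that level, and neither passed an adjusted p of 0.05. CDK9, the kinase of transcription elongation, read -0.12 and -0.66. No list was tested as a set.

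**Figure D4:**
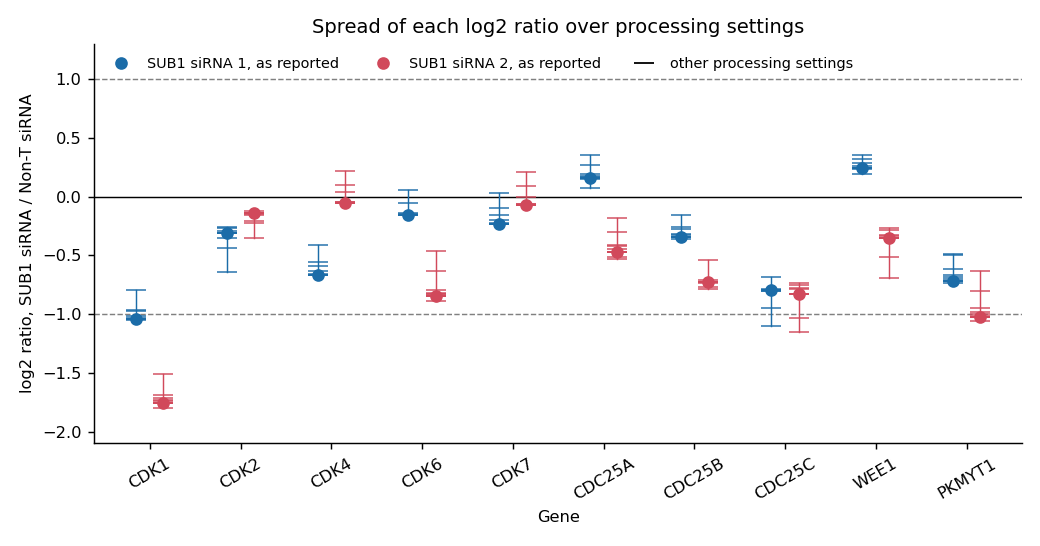
Log2 ratio to Non-T siRNA (vertical axis) for each gene (horizontal axis) as reported (points) and under each of the other processing settings (dashes joined by a line), with SUB1 siRNA 1 in blue, SUB1 siRNA 2 in red and dashed lines at a 2-fold change. CDK1 stays between -1.05 and -0.80 with siRNA 1 and between -1.80 and -1.51 with siRNA 2, while CDK4 with siRNA 2, CDK6 with siRNA 1 and CDK7 with either siRNA reach values above 0.

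Across 11 settings of background correction, normalization and filtering, ratios of CDK1, CDK2, CDC25B, CDC25C and PKMYT1 were below 0 on both arrays in each setting. CDC25C lay between -1.11 and -0.69 with siRNA 1 and between -1.16 and -0.73 with siRNA 2, and PKMYT1 between -0.73 and -0.49 and between -1.06 and -0.63. WEE1 was above 0 with siRNA 1 (0.20 to 0.36) and below 0 with siRNA 2 (-0.70 to -0.27) in each setting, as was CDC25A (0.073 to 0.36 and -0.53 to -0.18) on its brighter probe or the mean of its probes.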

How the data were processed

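The authors labelled total RNA of PC3 cells, hybridised 2 dual-colour arrays and deposited the Agilent Feature Extraction (9.5.1.1) intensity of each spot in both channels; the array coordinates are on hg18. They also deposited a table of log2 ratios, normalized by loess, whose correlation across probes with log2 ratios of Cy5 over Cy3 from the scanner files was 0.957 and 0.970. Mean signals were corrected by normexp (offset 50), ratios were normalized by loess (span 0.3; control spots at no weight) with limma 3.58.1 (R 4.3.3), spots flagged as outliers were dropped and the others averaged per probe. The filter required of each array that a share of 0.5 or more of a probe's spots be well above background in Cy3 or in Cy5 (25673 of 41000 probes), and the brightest kept probe stood for a gene. Of 19218 genes, 13129 were named through a RefSeq table and 6089 as in the files. The mean of both siRNAs was tested with limma (intercept, eBayes, Benjamini-Hochberg), a test that leaves out the spread of the control. With 1 array per siRNA, that number limits the precision.

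Named were the 10 genes with every probe, SUB1, members of the 4 lists past 2-fold on an array or among the 4 largest mean ratios of a list, and the 3 nearest genes to each member past 2-fold; other genes were named after their values were seen. The genes and lists were chosen with earlier results of these data known. Alternatives covered background, normalization, filter, outliers, probe choice and the eBayes prior.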

Additional observations from a re-analysis of the deposited data

Results flagged for a closer look

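CDC25A and WEE1 were the members with ratios of opposite sign on the 2 arrays. CDC25A read 0.16 with SUB1 siRNA 1 and -0.47 with SUB1 siRNA 2, a difference of -0.63, and WEE1 read 0.24 and -0.36, a difference of -0.60. With 1 array per siRNA the difference was not tested. The WEE1 probe and the second CDC25A probe were dim.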

How the results depend on the processing

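Loess was the choice that mattered most for the sign of small ratios. With median centring in place of loess the median of all genes was 0.127 (siRNA 1) and 0.119 (siRNA 2), and CDK4 with siRNA 2 read 0.22, CDK6 with siRNA 1 0.060, CDK7 0.034 and 0.21 (mean 0.12), and the CDC25A mean 0.030. Of these, CDK4 and CDK7 with siRNA 2 lay above the median of all genes. The regulators' medians became 0.046 and 0.069 and that of the other CDKs with siRNA 2 0.047, and 5 members were lower on both arrays. With processed signals the median of all genes was 0.144 and 0.167, and CDK4 and CDK7 with siRNA 2 read 0.098 and 0.091; with the authors' ratios CDK4 read 0.040. The second CDC25A probe read -0.013 and 0.10. The cause was not tested.

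Members at least 2-fold lower with siRNA 1 numbered 0 with median centring and the authors' ratios. With siRNA 2 they numbered 1 with median signals, median centring, the authors' ratios and the mean of probes, and at most 3.

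Over all genes, 117 (siRNA 1) and 205 (siRNA 2) were at least 2-fold lower and 40 and 118 higher. These became 56 and 101 lower and 137 and 266 higher with median centring, 214 and 347 lower and 983 and 1244 higher with processed signals, and 84 and 189 higher with an offset of 16. The share of higher genes among those changed was 25.5% and 36.5%, against 71.0% and 72.5% with median centring, 82.1% and 78.2% with processed signals, 36.7% and 47.4% with the authors' ratios, and 37.0% and 41.4% with an offset of 16.

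limma called 1 gene at an adjusted p of 0.05 (4010 at an unadjusted p of 0.05), 0 with no background correction, median signals, median centring, processed signals or the authors' ratios, 3 with every probe on its own and 129 without the filter on dim probes, where CDC25C had an adjusted p of 0.0469. Adjusted p ran from 0.0556 to 0.175 for CDK1 and PKMYT1, from 0.0469 to 0.175 for CDC25C, and from 0.111 to 0.209 for CDC25B over 13 settings.

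Leaving out an array leaves 1 array and no test, and a slide block was not run because both arrays lie on 1 slide. No paired analysis was possible because each siRNA has 1 array. CDK2, WEE1 and the second CDK6 and CDC25A probes lie near background, which limits their ratios.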
